A study of Mus musculus with 22 samples.

Results

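The genes described here encode the subunits of oxidative phosphorylation, the mitochondrial pathway that makes most of the ATP of a respiring cell. They were taken by gene symbol from the annotation of the array. A feature of the array was included when it carried 1 symbol that began with Nduf, Uqcr, Cox4 to Cox8 or Atp5, or was Sdha, Sdhb, Sdhc or Sdhd. This gave 60 features for 59 genes, of 9378 features for 9230 genes with 1 symbol. Complex I (NADH dehydrogenase) had 27 features, 2 of them for Ndufa3. Complex II (succinate dehydrogenase) had 4, complex III (the cytochrome bc1 complex) 2, complex IV (cytochrome c oxidase) 15 and complex V (ATP synthase) 12. The symbols also took in 4 assembly factors of complex I (Ndufaf1, Ndufaf2, Ndufaf3 and Ndufaf7) and Cox7a2l, which helps respiratory complexes to join into supercomplexes. Ndufa4 was kept with complex I after its name, although it is now regarded as a subunit of complex IV.

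Complexes I to IV pass electrons from NADH and succinate to oxygen, and complexes I, III and IV pump protons across the inner mitochondrial membrane. ATP synthase lets the protons flow back through a rotating ring of c subunits and uses the rotation in its F1 head to join ADP and phosphate. Early mouse embryos draw much of their energy from glycolysis, and respiration gains weight around the time the neural tube closes; arsenate can take the place of phosphate in ATP synthesis.

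RNA came from the anterior neural tube of mouse embryos from Folr2-/- dams, and was read on 22 one-colour CodeLink oligonucleotide arrays. Folr2 encodes a folate-binding membrane protein. Arsenic dams had been injected intraperitoneally with sodium arsenate at 9.6 mg As per kg at GD7:12 and GD8:12 (gestational day and hour), and control dams with water alone. Embryos were collected 3 h (GD8:15), 12 h (GD9:00) and 24 h (GD9:12) after the second injection. The arrays numbered 4 arsenic and 4 control at GD8:15, 3 arsenic and 4 control at GD9:00, and 4 arsenic and 3 control at GD9:12. Both arms carried the Folr2 deletion, so the comparisons hold for embryos without this gene only. The protocol describes RNA of single dissected neural tubes, amplified before labelling; no array is tied to a dam, so p-values reflect only how these samples vary, which may be technical.

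The deposited intensities ran from 56 to 85027, and the mean of an array had been set to 600 at GD8:15, 500 at GD9:00 and 1000 at GD9:12, so a technical step differed between stages and stage cannot be told apart from it. Values were brought to 1 distribution by quantile normalization and are given as log2 intensities; a difference of 1 is a 2-fold difference. Of 10500 features, 7830 were bright enough to be tested, among them 59 of the 60 described here. Cox8b, the muscle isoform of subunit 8, lay at percentile 15.0 and was not tested. All tests are moderated tests of limma with Benjamini-Hochberg adjustment over the 7830 features. Of the 13 features of anterior neural tube markers, 12 were tested. They ran from Gbx2 (mean 7.20, percentile 24.69) and Cdh2 (7.21) through Pax6 (7.53) and Otx2 (8.17) to En1 (11.23) and Six3 (11.85, percentile 97.39). Heart genes were present too: Myl7 averaged 11.49 in arsenic and 13.31 in control arrays at GD8:15. Its arsenic and control means were 12.38 and 11.86 at GD9:00, then 8.87 and 8.96 at GD9:12. The heart and muscle list had 12 features, of which 7 were tested; its defining members Tnnt2, Myh6, Myh7 and Tnnc1 lay at or below percentile 18.6. Xist, which is read from the inactive X of female cells, averaged 10.07 in arsenic and 7.53 in control arrays at GD9:00. A tissue holds a mixture of cells, and fewer cells of a type cannot be told apart from less RNA per cell.

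The subunit genes were bright. Their median log2 intensity was 9.71, at percentile 89.55 of all features, against 7.55 for all features, and 29 of the 60 lay in the top 10%. Brightness also depends on the probe, so no order of the subunits is given. Complex I ran from 7.21 to 12.68 with a median of 9.74, complex IV from 7.12 to 13.96 with 9.53, and complex V from 8.02 to 14.01 with 10.02. Complex II ran from 7.73 to 11.89 and complex III held Uqcrb at 14.14 and Uqcrfs1 at 8.93. The 2 features of Ndufa3, an accessory subunit of complex I, averaged 11.89 and 7.29, and correlated over the 22 arrays with r = 0.33; each value therefore stands for its feature. Within groups, a pair of subunit features correlated with a median r of 0.148, and a pair of complex I features with 0.259, against -0.005 for pairs among all tested features; features share arrays, and this is a description. Complex IV stood at 0.073, complex V at 0.158 and complex II at -0.063.

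**Figure D1:**
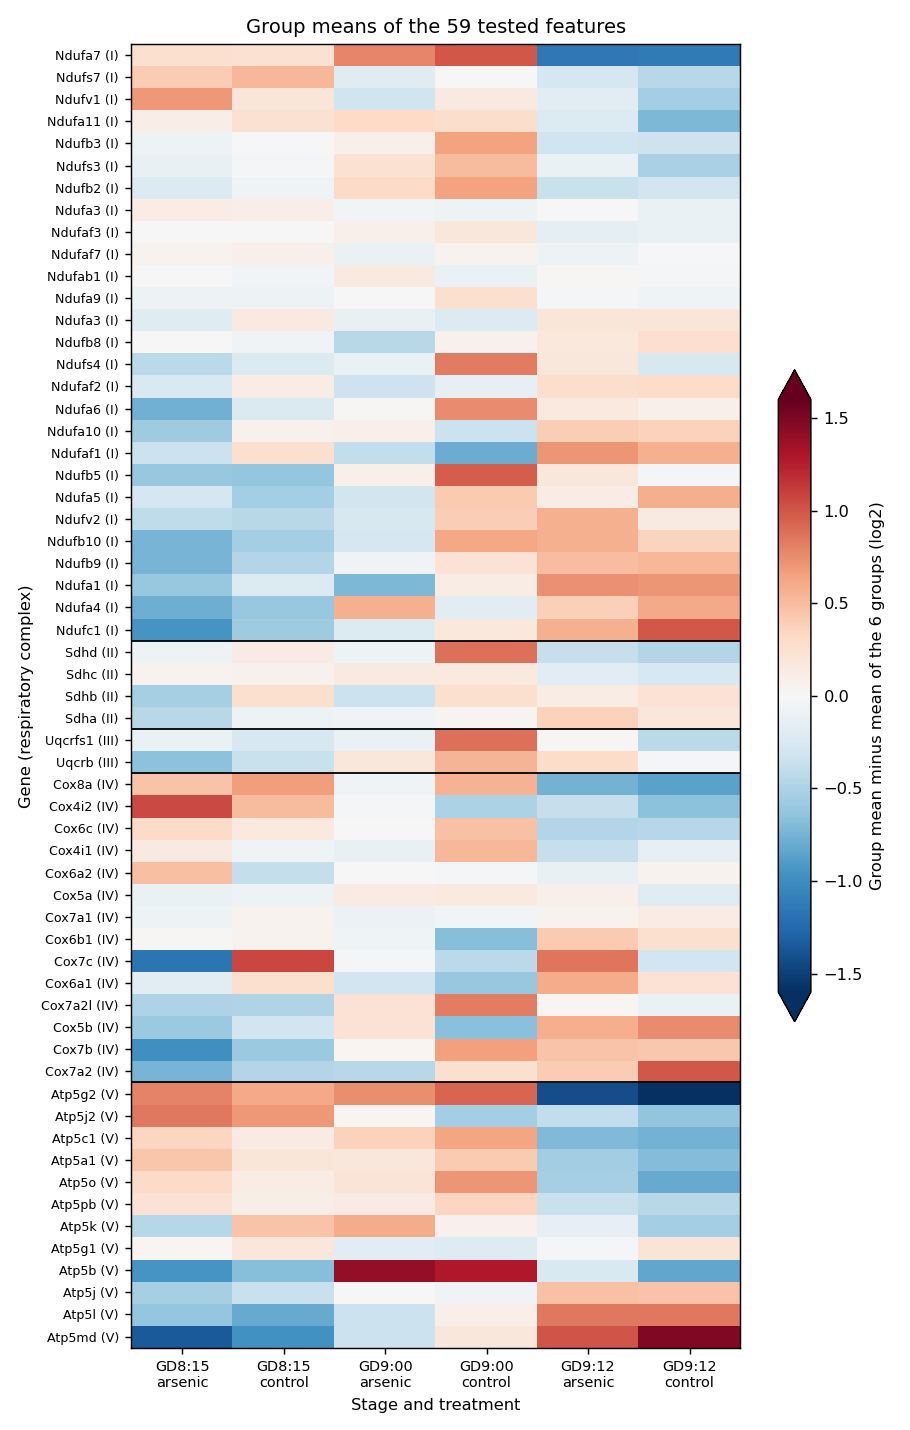
Mean of each stage and treatment group minus the mean of the 6 groups (log2), for the 59 tested features. Rows are genes ordered by complex (I at the top, V at the bottom) and, within a complex, by the difference of GD9:12 from GD8:15; red is above and blue below the mean. Within complex V, Atp5g2 stands low and Atp5md high at GD9:12 in both arms, and Atp5b stands high at GD9:00 in both arms.

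Arsenic arrays were first set against control arrays at each stage, to see whether treatment changed the respiratory chain. No subunit feature passed an adjusted p of 0.05 by limma at any stage, and none passed for the average of the 3 stages. The same held for all 7830 features, so the background share of calls was 0% at GD8:15, 0% at GD9:00, 0% at GD9:12 and 0% for the average. At an unadjusted p under 0.05, 1 subunit was higher and 5 were lower at GD8:15 (1.7% and 8.5% of 59), where 4% of all features were higher and 3.3% lower. At GD9:00 the counts were 3 higher and 6 lower (5.1% and 10.2%), against 4.56% and 8.01% of all features. At GD9:12 they were 1 and 1 (1.7% each), against 0.498% and 0.779%. For the average they were 1 higher and 2 lower (1.7% and 3.4%), against 1.89% and 3.83%. These shares differ from the background by a few features at most.

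The signs leaned one way at the first 2 stages. At GD8:15, 21 of 59 subunit features were higher and 38 lower in arsenic arrays, with a median difference of -0.117 against 0.001 over all features. At GD9:00, 18 were higher and 41 lower, with a median of -0.245 against 0.006. With arrays centred on their medians the subunits' median was -0.309 at GD8:15 and -0.774 at GD9:00, and with array weights it was -0.049 and 0.011, so the size of the lean was set by the processing. At GD9:12 the lean was the other way, 40 higher and 19 lower, with a median of 0.069 against -0.013. By quantile normalization, much of the lean at the first 2 stages lay in 1 array of each arsenic group. The mean deviation of all subunits was 0.290, 0.194 and -0.443 on the arsenic arrays of GD9:00, against 0.230, 0.246, 0.127 and 0.314 on the control arrays. It was -0.043, -0.065, -0.467 and -0.172 on the arsenic arrays of GD8:15, against -0.121, -0.007, 0.065 and -0.136 on the control arrays. Arsenic replicate 3 was the lowest array at both stages, and the arms otherwise overlapped. Without it the median difference was -0.041 at GD9:00 and 0.005 at GD8:15. On that array of GD8:15 the brightest features of the array as a whole also deviated by a median of -0.212, and on that of GD9:00 by -0.048; the part of array quality in the lean was not tested.

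**Figure D2:**
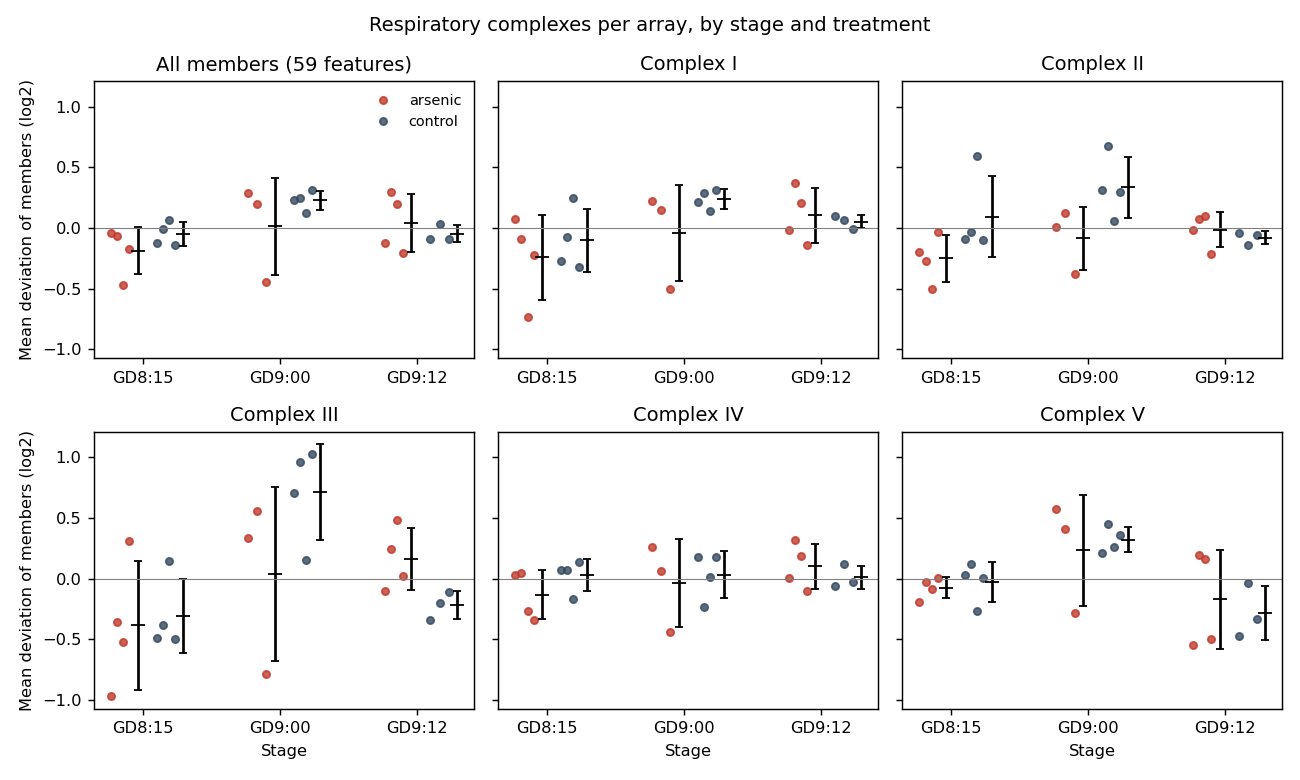
Mean deviation of the members of each complex from their means over the groups (log2), per array, at the 3 stages. Red points are arsenic arrays (left at each stage), dark points control arrays (right), and black marks the mean with the SD over arrays. Among all members, the lowest arsenic arrays, at -0.467 (GD8:15) and -0.443 (GD9:00), lie below every control array of their stage.

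The complexes can be set side by side in the same way. Complex II, which links the citric acid cycle to the respiratory chain, had the lowest median at GD8:15: -0.287, with all 4 members lower in arsenic arrays. At GD9:00 its 4 members were lower again, with a median of -0.348, and at GD9:12 its median was 0.087. Its mean deviation was -0.250 ± 0.195 in arsenic and 0.092 ± 0.332 in control arrays at GD8:15 (SD, n = 4 each), and -0.085 ± 0.262 (n = 3) against 0.334 ± 0.253 (n = 4) at GD9:00. Those ranges overlapped at both stages, and without control replicate 3 the median at GD8:15 was 0.005. Complex I had medians of -0.117, -0.255 and 0.029 at the 3 stages, and complex IV -0.086, -0.039 and 0.065. Complex V had medians of 0.145, -0.201 and 0.110, and the 2 genes of complex III -0.077, -0.675 and 0.380. All these medians are by quantile normalization. Under the other settings, over all arsenic and stage comparisons, 67 complex medians moved by at least the SD of such a median between replicate arrays. Another 443 moved by less. Single arrays also moved many of the medians given here. Without arsenic replicate 3 of GD9:00 the medians there were -0.112 for complex I, -0.267 for III, 0.070 for IV and 0.190 for V. At GD8:15 complex I was at 0.016 without arsenic replicate 3, complex III at 0.120 without arsenic replicate 1, and complex V at -0.065 without control replicate 3. At GD9:12 complex I ran from -0.042 to 0.088, complex II from -0.013 to 0.179, complex IV from -0.040 to 0.178 and complex V from -0.033 to 0.244 on leaving out 1 array at a time.

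**Figure D3:**
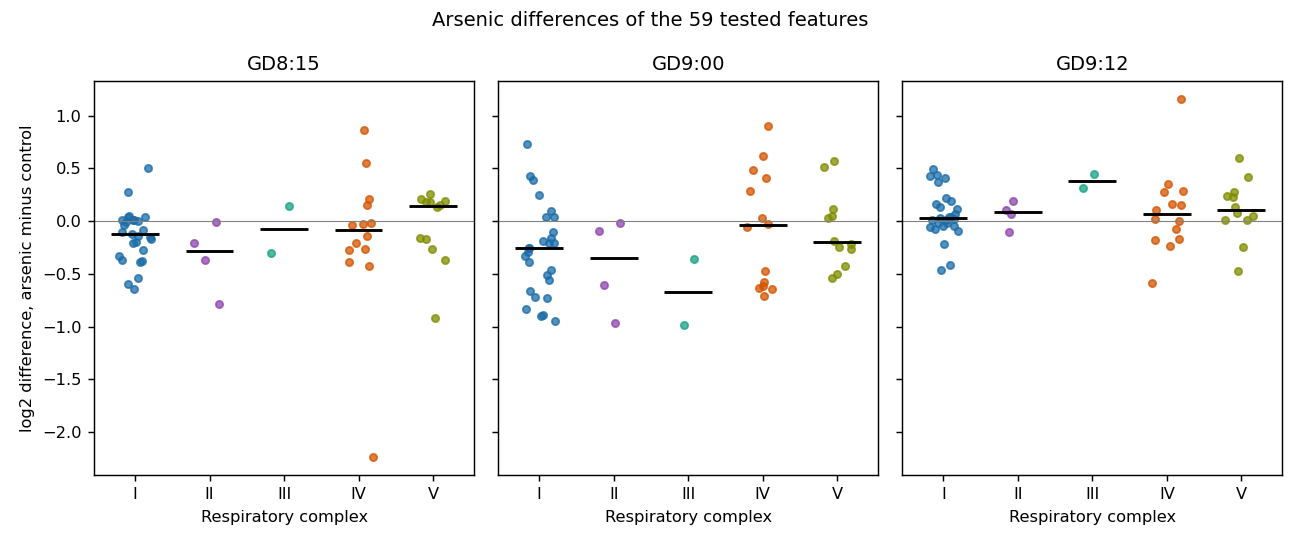
Log2 difference of arsenic minus control arrays for each of the 59 tested features, by complex, at the 3 stages. Each point is a feature and each bar the median of its complex. All 4 points of complex II lie below 0 at GD8:15 and GD9:00, and the lowest point of all is Cox7c at GD8:15 (-2.23).

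Among complex I genes, the catalytic core and the accessory subunits showed no single gene past the threshold. Ndufb3, an accessory subunit of the membrane arm, had values of 7.92, 7.95 and 7.06 on the arsenic arrays of GD9:00, against 8.24, 8.20, 7.90 and 8.46 on the control arrays. The arms overlapped, and the difference was -0.56 ± 0.19 (SE, limma adjusted p = 0.292). Without arsenic replicate 3 it was -0.27. Ndufa4 averaged 13.30 ± 0.32 (SD, n = 3) in arsenic and 12.56 ± 0.66 (n = 4) in control arrays at GD9:00, a difference of 0.73 ± 0.39 (SE, limma adjusted p = 0.444); centring on array medians gave -0.02. Ndufab1, the mitochondrial acyl carrier protein that also sits in complex I, differed by 0.25 ± 0.10 (SE, limma adjusted p = 0.351) at that stage. The 4 core subunits tested (Ndufs3, Ndufs7, Ndufv1 and Ndufv2) had a median difference of -0.031 at GD8:15, -0.360 at GD9:00 and 0.391 at GD9:12. Their signs were 2 higher and 2 lower, then 4 lower, then 4 higher, in that order of stages.

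Of complex II, Sdhb carries the iron-sulphur clusters. Its values were 8.26, 7.88, 7.66 and 7.70 on the arsenic arrays of GD8:15, against 8.43, 8.70, 8.71 and 8.80 on the control arrays. Every arsenic array lay below every control array, but the difference of -0.78 ± 0.26 (SE) did not pass (limma adjusted p = 0.518). At GD9:00 it had 8.11, 7.90 and 8.17 on arsenic arrays, against 9.51, 9.13, 7.99 and 8.00 on control arrays, and the arms overlapped. At GD9:12 it averaged 8.53 ± 0.29 (SD, n = 4) in arsenic and 8.63 ± 0.03 (n = 3) in control arrays, and over the 3 stages its difference was -0.50 ± 0.16 (SE, limma adjusted p = 0.862). Sdhd, one of the membrane anchors, had 8.25, 8.53 and 7.53 on the arsenic arrays of GD9:00, against 9.27, 9.47, 8.41 and 9.13 on the control arrays. The arms overlapped by 1 control array, and the difference was -0.96 ± 0.32 (SE, limma adjusted p = 0.279). Sdha, the flavoprotein that oxidizes succinate, averaged 11.45 ± 0.53 in arsenic and 11.81 ± 0.83 in control arrays at GD8:15 (SD, n = 4 each), and Sdhc, the other anchor, 7.79 ± 0.12 and 7.80 ± 0.14. Both differed by less than the spread between arrays.

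Complex III was represented by Uqcrfs1, the Rieske iron-sulphur protein that hands electrons towards cytochrome c, and by the accessory subunit Uqcrb. Uqcrfs1 had 9.34, 9.54 and 7.50 on the arsenic arrays of GD9:00, against 9.96, 10.35, 8.81 and 10.00 on the control arrays. The arsenic value of 7.50 is again replicate 3, and the arms overlapped. Uqcrb averaged 14.33 ± 0.32 (SD, n = 3) in arsenic and 14.69 ± 0.27 (n = 4) in control arrays at that stage.

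In complex IV, Cox7c, a small subunit made in all tissues, had the lowest arsenic difference of all 7830 features at GD8:15. Its values were 11.93, 10.95, 9.93 and 9.31 on the arsenic arrays, against 13.18, 13.51, 11.73 and 12.65 on the control arrays. One control value lay below 1 arsenic value, and the difference was -2.23 ± 0.71 (SE, limma adjusted p = 0.486). The arsenic value of 9.31 fell in a run of neighbouring bright features that were low on that array. At GD9:00 Cox7c had 12.24, 11.89 and 10.93 on arsenic arrays, against 12.05, 9.19, 11.91 and 11.94 on control arrays. At GD9:12 it had 11.97, 12.92, 12.44 and 12.89, against 9.60, 12.33 and 12.27; the control values of 9.19 and 9.60 also lay in such runs. The SD between arrays reached 1.15 in arsenic arrays of GD8:15, 1.39 in controls of GD9:00 and 1.56 in controls of GD9:12, and the difference at GD9:12 was 1.16 ± 0.76 (SE), or 0.26 without control replicate 1.

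Cox7a2 and Cox6a1 are the widely expressed forms of subunits that have a heart and muscle isoform. Cox7a2 had 12.42, 12.37 and 11.67 on the arsenic arrays of GD9:00, against 12.78, 12.73, 12.60 and 13.33 on the control arrays, so every arsenic array was lower. The difference was -0.71 ± 0.27 (SE, limma adjusted p = 0.321), and -0.46 without arsenic replicate 3. At GD9:12 it had 12.66, 13.53, 12.95 and 12.88 on arsenic arrays, against 13.71, 13.68 and 13.40 on control arrays, with an overlap of 1 array. Its average over the 3 stages was -0.52 ± 0.15 (SE), the lowest unadjusted p of the subunits in that comparison (0.00276; limma adjusted p = 0.731). Cox6a1 had 13.81, 13.79, 13.71 and 13.86 on the arsenic arrays of GD8:15, against 14.58, 14.13, 14.10 and 14.05 on the control arrays. The arms did not overlap, and the difference was -0.42 ± 0.16 (SE, limma adjusted p = 0.598). At GD9:12 Cox6a1 differed by 0.36 ± 0.17 (SE) in the opposite direction, and by 0.21 without control replicate 1.

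Cox6b1 lies at the intermembrane face of the enzyme, where 2 copies of complex IV meet. It had 12.89, 12.99 and 12.82 on the arsenic arrays of GD9:00, against 12.46, 12.03, 12.35 and 12.29 on the control arrays, with no overlap and a difference of 0.62 ± 0.20 (SE, limma adjusted p = 0.268). With arrays centred on their medians in place of quantile normalization, this difference was -0.16. Cox7a2l averaged 9.56 ± 0.23 (SD, n = 3) in arsenic and 10.14 ± 0.22 (n = 4) in control arrays at GD9:00, a difference of -0.58 ± 0.23 (SE, limma adjusted p = 0.338). Of the tissue isoforms, Cox6a2 of heart and muscle had 8.76, 8.05, 9.54 and 8.10 on the arsenic arrays of GD8:15, against 7.10, 8.06, 7.93 and 7.92 on the control arrays. The lowest arsenic value lay just below the highest control value, so the arms overlapped. The difference was 0.86 ± 0.27 (SE, limma adjusted p = 0.504), or 0.56 without arsenic replicate 3. Myl7 and Actc1, both heart genes, differed the other way at GD8:15, by -1.82 ± 0.52 and -1.57 ± 0.53 (SE). Of the 7 tested heart and muscle features, 5 were lower and 2 higher in arsenic arrays there, and none passed. The 2 higher were Gata4 (8.99 against 8.80 in controls) and Tnni1 (7.68 against 7.52). Cox4i2, the lung and oxygen-sensitive form of subunit 4, differed by 0.55 ± 0.35 at that stage, or 0.21 without control replicate 3, and Cox7a1, of heart and muscle, had group means from 7.34 to 7.57 in all 6 groups.

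In complex V, Atp5b, the catalytic beta subunit of the F1 head, had 8.63, 8.94, 8.86 and 8.41 on the arsenic arrays of GD9:12, against 7.99, 8.28 and 8.07 on the control arrays. The arms did not overlap, and the difference was 0.60 ± 0.18 (SE, unadjusted p = 0.00444, limma adjusted p = 1). At the other stages it was -0.26 at GD8:15 and 0.12 at GD9:00. Atp5k, the small e subunit of the membrane part, had 11.63, 11.27, 10.55 and 11.55 on the arsenic arrays of GD8:15, against 11.96, 11.64, 12.38 and 12.69 on the control arrays. All arsenic arrays were lower, the closest pair being 11.63 and 11.64, with a difference of -0.92 ± 0.38 (SE, limma adjusted p = 0.616). Atp5j2, the f subunit, averaged 14.02 ± 0.10 (SD, n = 3) in arsenic and 13.44 ± 0.54 (n = 4) in control arrays at GD9:00, a difference of 0.57 ± 0.27 (SE, limma adjusted p = 0.394); centring on array medians gave -0.21, and leaving out control replicate 4 gave 0.32.

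Across all 59 subunit features, arms without overlap were 0 higher and 3 lower at GD8:15, where 1.92% and 1.93% of all features were so placed. They were 2 higher and 4 lower at GD9:00, against 2.41% and 7.22%, and 2 higher and 0 lower at GD9:12, against 2.17% and 2.84%. Whether the arsenic difference changed between stages was tested with an F test. No subunit passed, and 0% of all features did; 6 subunits and 503 of all features had an unadjusted p under 0.05. Cox6a1, Cox7c and Atp5b had the lowest, each with a limma adjusted p of 0.692, and Atp5k had 0.746.

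Between stages, subunits did pass the threshold. In all, 22 of the 59 features passed an adjusted p of 0.05 by limma in at least 1 of the 6 stage comparisons: 9 of complex I, 1 of complex II, 1 of complex III, 6 of complex IV and 5 of complex V. This is 37.3%, against 30.4% of all 7830 features called in at least 1 of these comparisons. For GD9:00 against GD8:15 in arsenic embryos, 2 rose and 0 fell (3.4% and 0%), where 2.4% of all features rose and 1.81% fell. In controls 8 rose and 4 fell (13.6% and 6.8%), against 8.15% and 6.83% of all features. For GD9:12 against GD9:00 in arsenic embryos, 2 rose and 4 fell (3.4% and 6.8%), against 1.9% and 1.98%. In controls 3 rose and 9 fell (5.1% and 15.3%), against 3.82% and 7.42%. Over the whole span, GD9:12 against GD8:15, 10 rose and 4 fell in arsenic embryos (16.9% and 6.8%), against 7.23% and 6.59%. In controls 4 rose and 3 fell (6.8% and 5.1%), against 3.77% and 3.95%.

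These splits rest on quantile normalization. With the scaling of the authors, which sets the array means to a different constant at each stage, the subunits called in arsenic embryos were 31 higher and 1 lower, both for GD9:12 against GD9:00 and for GD9:12 against GD8:15. The median of all features then moved by 0.330 and 0.055, and the subunits' medians were 1.04 and 0.949. Of all 7830 features, 1805 were called higher and 11 lower, then 1255 and 134. In controls the splits were 25 and 4, and 22 and 1, with all features at 0.785 and 0.270 and the subunits at 0.730 and 0.600. Of all 7830 features, 5509 were called higher and 103 lower, then 1323 and 98. For GD9:00 against GD8:15 the split of the subunits was 1 and 0 in arsenic embryos, with all features at -0.256 and the subunits at -0.202. In controls it was 5 and 9, with all features at -0.492 and the subunits at 0.101. The splits of all features in this comparison were 19 and 132 in arsenic embryos and 168 and 2576 in controls. For the subunits, centring on array medians gave 1 and 0, 11 and 2, and 24 and 2 in arsenic embryos for GD9:00 against GD8:15, GD9:12 against GD9:00 and GD9:12 against GD8:15, and 7 and 0, 4 and 8, and 11 and 1 in controls. Of all features, centring called 33 higher and 29 lower, 665 and 100, and 1157 and 434 in arsenic embryos. In controls it called 617 and 408, 745 and 619, and 726 and 248. The subunits' median turned sign with the scaling for GD9:00 against GD8:15 in arsenic embryos. In controls it turned for GD9:12 against both earlier stages. In the other comparisons it stayed positive, but its size and the calls changed. The single subunit genes below are named with the scalings under which their calls were lost, where this was looked up. It was not looked up for the control calls on Sdhd, Atp5c1 and Cox7a2l between GD9:00 and GD9:12. There the authors' scaling called 4 subunits lower, against 9 by quantile normalization. Nor was it for the arsenic calls on Cox7a2 and Ndufc1 between GD8:15 and GD9:12.

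The arsenic and control arms share no array, so each stage comparison was made on separate embryos in both. The sign was the same in both arms for 42 of 59 features between GD9:00 and GD8:15, 44 between GD9:12 and GD9:00, and 48 between GD9:12 and GD8:15. These are 71.2%, 74.6% and 81.4%, against 68.2%, 65.8% and 74.5% of all features. The differences correlated across the 59 features with r = 0.47, 0.82 and 0.80 in that order, where all 7830 features gave 0.60, 0.62 and 0.77; features are not independent, and both arms share the stage's processing. Of 2, 6 and 14 features called in arsenic embryos, 2, 6 and 7 were also called in controls, which is 100%, 100% and 50% of the arsenic calls and 16.7%, 50% and 100% of the 12, 12 and 7 control calls. Every shared call had the same direction in both arms. Over all features the shared calls were 69.1%, 64.1% and 38.2% of the arsenic calls and 19.4%, 22.2% and 68.4% of the control calls.

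**Figure D4:**
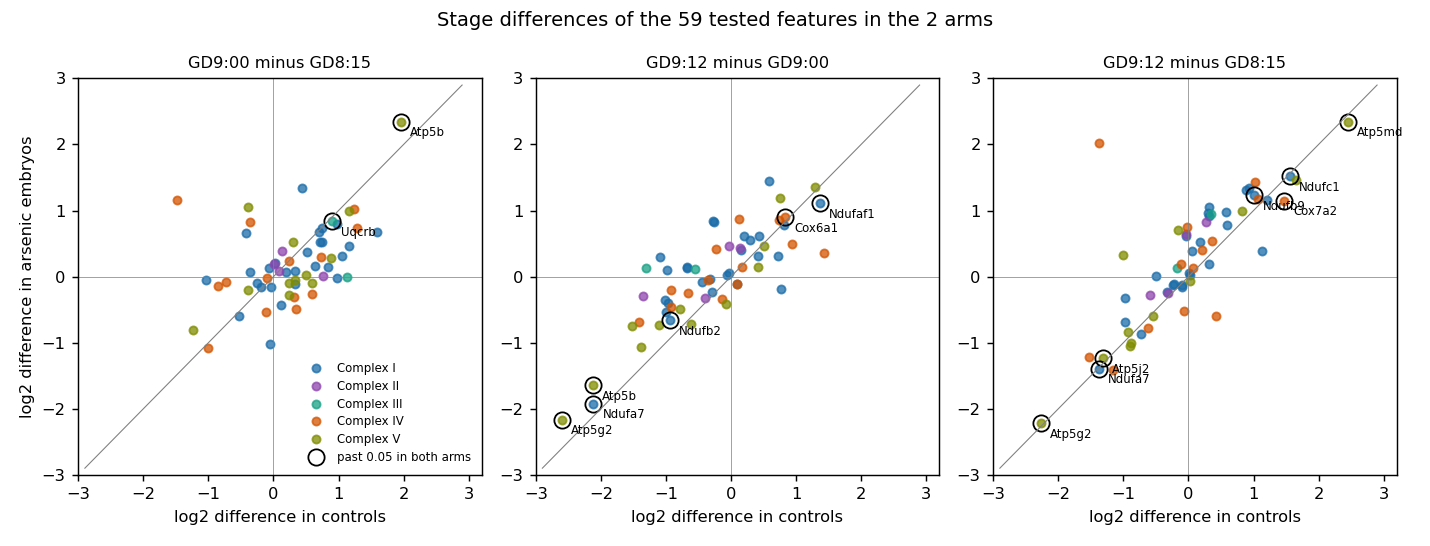
Stage differences (log2) of the 59 tested features in arsenic embryos (vertical) and in controls (horizontal), coloured by complex, for GD9:00 minus GD8:15, GD9:12 minus GD9:00 and GD9:12 minus GD8:15. Circled features passed an adjusted p of 0.05 in both arms, and the diagonal marks equal differences. The circled features lie in the same quadrant in both arms, 2, 6 and 7 of them in the 3 panels; Cox7c lies far off the diagonal in the right panel.

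In ATP synthase, single subunits moved in opposite directions between stages. On arsenic arrays Atp5b had 7.75 to 8.18 at GD8:15, then 10.34, 10.49 and 10.22 at GD9:00, and 8.41 to 8.94 at GD9:12. On control arrays it had 7.83 to 8.61 at GD8:15, then 10.43, 10.34, 9.82 and 10.34 at GD9:00, and 7.99 to 8.28 at GD9:12. All arrays of GD9:00 lay above all arrays of the other stages, in both arms. At GD9:00 it was higher than at GD8:15 by 2.35 ± 0.18 in arsenic embryos and by 1.96 ± 0.17 in controls (SE, limma adjusted p = 6.41e-07 and 8.89e-07). At GD9:12 it was lower than at GD9:00 by -1.64 ± 0.18 and -2.12 ± 0.18 (SE, limma adjusted p = 0.000136 and 3.34e-06). With the authors' scaling the second step in arsenic embryos was -0.67 and did not pass.

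Atp5g2 encodes one of the c subunits that form the rotor ring. On arsenic arrays it had 10.46 to 12.01 at GD8:15, then 10.72, 10.78 and 11.28 at GD9:00, and 8.58, 8.75, 9.00 and 8.69 at GD9:12. On control arrays it had 10.26 to 11.20 at GD8:15, then 10.44 to 12.09 at GD9:00, and 8.37, 8.62 and 8.55 at GD9:12. No array of GD9:12 reached any of an earlier stage. It fell between GD9:00 and GD9:12, with differences of -2.17 ± 0.35 in arsenic embryos and -2.60 ± 0.35 in controls (SE, limma adjusted p = 0.00246 and 0.000228). Atp5g1, which encodes the same mature c subunit from another gene, did not pass in any stage comparison, so a fall of the ring's transcripts as a whole is not shown. Its values of 6.91 (control, GD8:15), 7.47 (arsenic, GD8:15) and 8.17 (control, GD9:00) lay in runs of neighbouring features that were low on those arrays. The SD between arrays reached 1.76 in controls of GD8:15, so a change of Atp5g1 could have been missed.

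Atp5md, a small membrane subunit linked to the dimer form of the enzyme, went the other way. It had 9.86, 12.17, 10.99 and 10.48 on the arsenic arrays of GD9:12, against 8.21 to 8.87 at GD8:15. On control arrays it had 10.74, 12.22 and 11.09 at GD9:12, against 8.26 to 9.24 at GD8:15. The stages did not overlap in either arm, and it rose by 2.35 ± 0.43 in arsenic embryos and by 2.45 ± 0.46 in controls (SE, limma adjusted p = 0.00165 and 0.00336). Atp5j2 was lower at GD9:12 than at GD8:15 by -1.24 ± 0.25 in arsenic embryos and -1.31 ± 0.27 in controls (SE, limma adjusted p = 0.0034 and 0.00584). Neither of these calls held with the authors' scaling (-0.09 and -0.42) or with centring (-0.09 and -0.62). As a group, the 3 genes of the F1 head and central stalk (Atp5a1, Atp5b and Atp5c1) had medians of -1.073 in arsenic embryos and -1.386 in controls between GD9:12 and GD9:00, all 3 lower in both arms. Atp5c1, the gamma subunit of the rotating shaft, passed in controls at -1.39 ± 0.43 (SE, limma adjusted p = 0.0431).

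**Figure D5:**
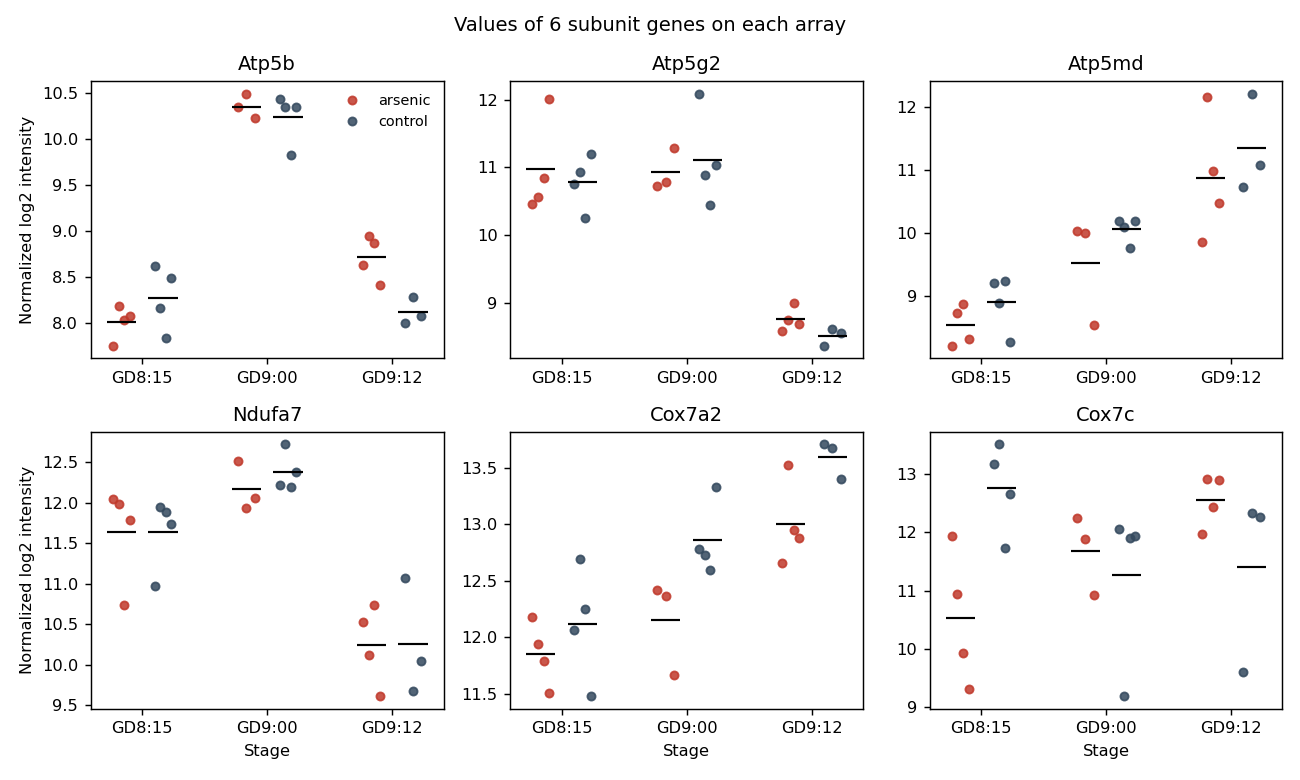
Normalized log2 intensity of 6 subunit genes on each array, at the 3 stages, with arsenic arrays in red (left at each stage) and control arrays dark (right); bars are group means. Atp5b is above 9.8 on every array of GD9:00 and below 9 on every other array, Atp5g2 and Ndufa7 are lowest at GD9:12, Atp5md and Cox7a2 are highest there, and Cox7c spreads from 9.19 to 13.51.

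In complex I, Ndufa7, an accessory subunit of the matrix arm, had 10.52, 10.12, 10.73 and 9.61 on the arsenic arrays of GD9:12, against 12.51, 11.93 and 12.06 at GD9:00. On control arrays it had 11.07, 9.67 and 10.04, against 12.22, 12.72, 12.19 and 12.38. The stages did not overlap, and it fell, with differences of -1.92 ± 0.36 in arsenic embryos and -2.12 ± 0.36 in controls (SE, limma adjusted p = 0.00523 and 0.00124). The authors' scaling (-0.63) and centring (-0.89) each ended the call in arsenic embryos. Its lower level at GD9:12 than at GD8:15 passed in both arms by quantile normalization and in neither under those scalings. In controls that call was also lost on leaving out any of 5 of the 7 arrays, with an adjusted p of up to 0.148. Ndufb9, of the membrane arm, was higher at GD9:12 than at GD8:15 by 1.23 ± 0.20 in arsenic embryos and 1.01 ± 0.22 in controls (SE, limma adjusted p = 0.000667 and 0.00755). Ndufc1, also of the membrane arm, was higher by 1.52 ± 0.36 and 1.56 ± 0.39 (SE, limma adjusted p = 0.00863 and 0.0183). Its call in controls was lost without control replicate 4 of GD8:15 (adjusted p = 0.0616) and without replicate 1 (0.0502) or 2 (0.129) of GD9:12. Ndufb2 fell between GD9:00 and GD9:12 at -0.66 ± 0.17 in arsenic embryos and -0.94 ± 0.17 in controls (SE, limma adjusted p = 0.0389 and 0.00225), and the assembly factor Ndufaf1 rose by 1.11 ± 0.28 and 1.36 ± 0.28 (SE, limma adjusted p = 0.0316 and 0.00454). In arsenic embryos the calls on Ndufb2 and Ndufaf1 were each lost on leaving out any of 5 arrays, with an adjusted p of up to 0.224 and 0.160. With the authors' scaling Ndufb2 did not pass in either arm (-0.05 and -0.21), and with centring not in arsenic embryos (-0.30). With trended robust variances the arsenic calls on Ndufb2 and Ndufaf1 were lost too (adjusted p = 0.0805 and 0.0590). Ndufb5 was called in controls alone between GD8:15 and GD9:00, with a rise of 1.59 ± 0.36 (SE, limma adjusted p = 0.00753). In arsenic embryos its mean also rose, from 9.21 to 9.89, which was not called. The difference between arms in this step was not called for any feature.

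Of complexes II and III, Sdhd fell in controls between GD9:00 and GD9:12, by 1.35 ± 0.32 (SE, limma adjusted p = 0.011). The other 3 subunits of succinate dehydrogenase passed in no stage comparison. Uqcrb had 14.39, 14.62 and 13.99 on the arsenic arrays of GD9:00, against 12.95 to 13.84 at GD8:15. On control arrays it had 14.51, 14.62, 14.56 and 15.09, against 13.37 to 14.03. It rose by 0.84 ± 0.21 in arsenic embryos and 0.90 ± 0.20 in controls (SE, limma adjusted p = 0.0312 and 0.0065). The call in arsenic embryos was lost on leaving out any of 4 arrays, with an adjusted p of up to 0.154, and under both other scalings.

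In complex IV, Cox7a2 had 12.66, 13.53, 12.95 and 12.88 on the arsenic arrays of GD9:12, against 11.51 to 12.18 at GD8:15. On control arrays it had 13.71, 13.68 and 13.40, against 11.48 to 12.69. It rose over this span by 1.15 ± 0.25 in arsenic embryos and 1.47 ± 0.27 in controls (SE, limma adjusted p = 0.00479 and 0.00269), with no overlap of stages in either arm. Cox6a1 was higher at GD9:12 than at GD9:00 by 0.90 ± 0.17 in arsenic embryos and 0.83 ± 0.17 in controls (SE, limma adjusted p = 0.00693 and 0.00507), after a fall of 0.86 ± 0.16 in controls between GD8:15 and GD9:00 (SE, limma adjusted p = 0.00214). With trended robust variances the arsenic call on Cox6a1 was lost (adjusted p = 0.0580). Cox6b1 moved like Cox6a1 in controls, by -0.74 ± 0.18 and then 0.94 ± 0.20 (SE, limma adjusted p = 0.0125 and 0.00509). With centring the first step did not pass for either gene (-0.54 for Cox6a1 and -0.35 for Cox6b1). Cox7a2l did the reverse in controls, with 1.29 ± 0.21 and then -0.93 ± 0.23 (SE, limma adjusted p = 0.000808 and 0.0145). Cox4i2 fell in arsenic embryos between GD8:15 and GD9:12, by 1.42 ± 0.35 (SE, limma adjusted p = 0.0121), and with the authors' scaling did not pass (-0.74). In controls its mean also fell over this span, from 9.775 to 8.62, which was not called. The muscle isoforms Cox6a2 and Cox7a1 passed in no stage comparison, while the heart gene Myl7 fell over the same span, with differences of -2.62 ± 0.52 in arsenic embryos and -4.35 ± 0.56 in controls (SE, limma adjusted p = 0.00283 and 0.000164). The mean of the heart and muscle list ran from 7.55 to 7.78 on arsenic and 7.68 to 7.78 on control arrays of GD9:12, and from 7.93 to 8.24 on arsenic and 8.34 to 8.60 on control arrays of GD8:15. The part of heart tissue in the stage differences of the subunits was not tested.

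Stage also went with the slide series, as given by unexplained codes in the titles of the samples. Most arrays of GD8:15 were of 1 series and most later arrays of another. One control array of GD8:15, replicate 3, was of the later series, and its values of 7.83 for Atp5b, 10.26 for Atp5g2 and 9.24 for Atp5md compare with 7.75 to 8.61, 10.46 to 12.01 and 8.21 to 9.20 on the other GD8:15 arrays. Its Atp5g2 was the lowest and its Atp5md the highest of that stage, both on the side of the GD9:12 values. With the slide series as a random block, no stage call on a named subunit was lost, but the estimated correlation within a series was -0.031 and stage and series largely coincide. Between GD9:12 and GD9:00 all arrays but control replicate 1 of GD9:12 were of 1 series, and without it 10 subunits passed in controls, against 12 with it. The series also differed between arms at GD8:15, where all arsenic arrays were of the same series but control replicates 1 and 3 were of others. Arsenic differences at GD8:15 and GD9:12 are therefore partly mixed with series.

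Promoter sequences were looked up for the members, since the subunit genes of the complexes are known as common targets of the nuclear respiratory factor NRF1, of ETS factors such as GABP, of YY1 and of the oestrogen-related receptors. RefSeq promoter sequences (mouse GRCm38.p6, 300 bases, most of them before a gene's start) were found for 51 of the 59 genes. Each window was searched on both strands, overlaps included. The NRF1 motif GCGCANGC, where N is any base, was in 14 of 51 (27.5%), against 11.2% of all 27025 genes with a promoter and 18.9% of the 7317 on this array. The ETS core CCGGAAG was in 11 (21.6%), against 9.9% and 15.5%. The YY1 core AAGATGGC was in 9 (17.6%), against 3.2% and 4.2%, namely Ndufa3, Ndufa9, Ndufb8, Ndufc1, Ndufs4, Ndufs7, Atp5j, Atp5j2 and Atp5pb. The ERR site TCAAGGTCA was in 1, Sdhd (2.0%), against 0.5% and 0.4%. A match is a description of letters and not a binding site.

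Of the genes called with stage in both arms, 10 had a promoter sequence; 4 held a match in the 200 bases before the start and 6 held none. Below are those bases for the 4 of ATP synthase, which moved in different directions, and for Cox6a1 and Ndufaf1, which hold a match. The arsenic calls on these 2 genes were lost with trended robust variances. Ndufa7, Ndufb2, Cox7a2 and Ndufc1, not printed, held none. Bases are 5′ to 3′ on the gene's strand. Capitals mark a match to one of the motifs on either strand. Atp5b is at chr10:128083107-128083306 (plus strand), Atp5g2 at chr15:102671048-102671247 (minus), Atp5j2 at chr5:145191542-145191741 (minus), Atp5md at chr19:47090648-47090847 (minus), Cox6a1 at chr5:115348959-115349158 (minus) and Ndufaf1 at chr2:119662835-119663034 (minus).
Atp5b: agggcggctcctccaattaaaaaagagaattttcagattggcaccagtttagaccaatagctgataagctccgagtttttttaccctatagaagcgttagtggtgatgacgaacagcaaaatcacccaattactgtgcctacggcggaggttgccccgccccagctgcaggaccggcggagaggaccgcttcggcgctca
Atp5g2: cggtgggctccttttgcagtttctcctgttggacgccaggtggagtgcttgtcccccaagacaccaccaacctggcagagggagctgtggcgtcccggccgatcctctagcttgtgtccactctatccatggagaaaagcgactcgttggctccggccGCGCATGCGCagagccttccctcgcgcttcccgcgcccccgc
Atp5j2: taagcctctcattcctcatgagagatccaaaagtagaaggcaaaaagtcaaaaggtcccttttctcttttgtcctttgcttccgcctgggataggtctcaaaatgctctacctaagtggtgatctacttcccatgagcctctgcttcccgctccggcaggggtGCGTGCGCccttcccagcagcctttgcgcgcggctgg
Atp5md: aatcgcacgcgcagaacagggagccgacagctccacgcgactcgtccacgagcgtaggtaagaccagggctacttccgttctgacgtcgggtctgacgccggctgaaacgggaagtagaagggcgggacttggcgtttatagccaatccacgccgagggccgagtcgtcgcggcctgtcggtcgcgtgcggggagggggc
Cox6a1: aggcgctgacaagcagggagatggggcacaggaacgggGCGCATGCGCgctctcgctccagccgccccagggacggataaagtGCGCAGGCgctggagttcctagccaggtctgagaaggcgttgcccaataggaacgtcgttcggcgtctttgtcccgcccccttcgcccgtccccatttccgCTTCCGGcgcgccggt
Ndufaf1: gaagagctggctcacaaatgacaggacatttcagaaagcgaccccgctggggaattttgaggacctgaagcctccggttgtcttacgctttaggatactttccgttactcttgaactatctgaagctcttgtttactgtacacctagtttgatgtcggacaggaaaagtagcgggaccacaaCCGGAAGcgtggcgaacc

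Atp5b, which peaked at GD9:00, and Atp5md, which was highest at GD9:12, hold no match in the printed bases, while Atp5g2 and Atp5j2, both lower at GD9:12, hold the NRF1 motif. Cox6a1, which was higher at GD9:12 than at GD9:00, holds both the NRF1 motif and the ETS core. The ETS match of Atp5md and the YY1 match of Atp5j2 lie outside the printed bases. The same letters are therefore found in front of genes that rose and of genes that fell.

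Other genes of mitochondrial energy supply were followed by lists. None was called in an arsenic comparison. At GD9:00 the median arsenic difference was -0.206 over 14 features of the tricarboxylic acid cycle, -0.360 over 24 of carriers, channels and import, -0.239 over 18 of glycolysis and -0.097 over 15 assembly factors outside the symbol rule. It was -0.370 over 6 electron carriers and 0.185 over 9 regulators of mitochondrial biogenesis, and the subunits stood at -0.245. With the authors' scaling the cycle stood at 0.233, the assembly factors at 0.047 and glycolysis at -0.017. All features then stood at a median of 0.434, against 0.006 by quantile normalization. For GD9:12 against GD9:00 in arsenic embryos, 0 of 24 features of carriers, channels and import rose and 1 fell. In controls 0 rose and 8 fell, among them the adenine nucleotide translocators Slc25a4 (-2.36 ± 0.45) and Slc25a5 (-2.14 ± 0.41, SE), which exchange ATP for ADP across the inner membrane. Of 18 glycolysis features, 0 rose and 1 fell in arsenic embryos, Ldha, lactate dehydrogenase, at -2.23 ± 0.41 (SE). In controls 0 rose and 4 fell, among them Ldha at -3.56 ± 0.41 and Pkm, pyruvate kinase, at -2.81 ± 0.45 (SE). Of 14 cycle features, 0 rose and 1 fell in arsenic embryos, and 0 rose and 2 fell in controls. Of 9 regulators of mitochondrial biogenesis, 2 rose and 0 fell in arsenic embryos, with Yy1 at 2.13 ± 0.55 (SE, limma adjusted p = 0.0356), and 2 rose and 2 fell in controls. There Yy1 was at 1.77 ± 0.55 and Tfam, which packs and transcribes mitochondrial DNA, at -1.69 ± 0.50 (SE, limma adjusted p = 0.0431 and 0.0361). Of all features, 1.9% rose and 1.98% fell in this comparison in arsenic embryos, and 3.82% and 7.42% in controls. These list counts turn with the scaling: with that of the authors, 9 of the carriers, channels and import rose and 0 fell in arsenic embryos, and 8 rose and 2 fell in controls. Centring gave 1 and 0 in arsenic embryos and 0 and 6 in controls. For glycolysis the authors' scaling gave 1 and 0 in arsenic embryos and 3 and 3 in controls, and centring 0 and 0, and 0 and 5. For the cycle the authors' scaling gave 4 and 0, and 5 and 1, and for the regulators 2 and 0, and 6 and 0. With the authors' scaling, 1805 of all 7830 features rose and 11 fell in arsenic embryos, and 5509 and 103 in controls. Centring gave 665 and 100 of all features in arsenic embryos, and 745 and 619 in controls. These scalings of the lists were chosen after seeing the data. Whether the arms differed in these counts was not tested. Cycs, cytochrome c, which carries electrons between complexes III and IV, rose in arsenic embryos between GD8:15 and GD9:12 by 1.61 ± 0.46 (SE, limma adjusted p = 0.0254). In controls its difference was 0.34 ± 0.50 (SE). The difference between arms over this span was not called for any feature (lowest limma adjusted p = 0.784). Whether the call on Cycs held under the other scalings was not looked up.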

How the data were processed

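The authors deposited 1 linear intensity per feature and array, with the array mean at a constant that differed by stage. Scanner software, background correction and scaling are not given in the sources used here. Amplified RNA (aRNA) was hybridised to 1-colour arrays, per the labels' protocols. The deposited values hold 838 placeholders of 1 or 2, which were set to missing.

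From these, log2 intensities were quantile-normalized and fitted with 6 group means in limma 3.58.1 (R 4.3.3), with Benjamini-Hochberg adjustment and a threshold of 0.05. Features needed values on at least 2 arrays per group and a mean above the lowest 25%, which left 7830. The fit was tested on simulated data. Figures used Python 3.11.15 and matplotlib 3.10.9. The number of arrays limits precision. Named genes are the 4 of lowest p-value in each direction of each comparison and in the F test, the brightest and dimmest of each complex, all of complex II, genes with several features, tissue isoforms and their partners, assembly factors, and up to 3 of lowest p-value from each other list; any other gene was chosen after its values were seen. Members and lists were chosen with earlier results of these data known. Alternatives were the authors' scaling, centring on array medians, brighter features, trended robust variances, array weights, the slide series as a block, masked low runs and each array left out.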

Additional observations from a re-analysis of the deposited data

Results flagged for a closer look

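In groups of 4 arrays, the highest or lowest array was compared with the others by its gap to the nearest one over the whole range. Of 140 such groups among the subunits and complexes, 7 had an array apart, and chance flags about 1 in 20 groups, which is 7. Among controls of GD8:15, complex II was highest on replicate 3, at a mean deviation of 0.589 against -0.031 on the next array. In the same group Cox6a1 was highest on replicate 1 (14.58, next 14.13), where Cox6a2 was lowest (7.10, next 7.92). Among controls of GD9:00, Atp5b was lowest on replicate 3 (9.82, next 10.34) and Cox7c was lowest on replicate 2 (9.19, next 11.91). In arsenic arrays, Cox4i2 was highest on replicate 1 of GD9:12 (9.67, next 8.73) and Ndufc1 was highest on replicate 2 of GD8:15 (8.79, next 7.83).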

How the results depend on the processing

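The count of subunits past the threshold in the arsenic comparisons was 0 under every setting run. Few or none of all features passed there either, with 1 exception. Array weights called 93 higher and 17 lower of all 7830 features at GD9:00, and 11 and 2 for the average. With the authors' scaling, the subunits' median stage differences in arsenic embryos were -0.202, 1.042 and 0.949 (GD9:00 minus GD8:15, GD9:12 minus GD9:00, GD9:12 minus GD8:15), with 1, 32 and 32 called; in controls they were 0.101, 0.730 and 0.600, with 29 and 23 called in the last pair. With centring, the medians were 0.783 and 0.950 in the last pair in arsenic embryos, with 1, 13 and 26 called, and 0.609, 0.020 and 0.398 in controls, with 7 and 12 called in the first and last. The calls over all features under both scalings are given with the splits above. The authors' scaling also moved the arsenic difference of all features to a median of 0.210 at GD8:15 and 0.434 at GD9:00. Centring also gave arsenic medians of -0.309 at GD8:15, -0.774 at GD9:00 and -0.340 for the average. Among brighter features the arsenic embryos' median for GD9:12 minus GD8:15 was 0.387. Trended robust variances gave 1 and 3 calls in the first and second comparisons in arsenic embryos. Of all 7830 features they called 177 higher and 143 lower, then 138 and 123. Array weights gave a median arsenic difference of 0.011 at GD9:00, 7 calls (median 0.344) and 17 calls in the first and second comparisons in arsenic embryos, and 20 and 21 calls in the last pair in controls. Over all 7830 features, these weights called 456 higher and 431 lower, then 622 and 812, in those arsenic comparisons. In the last pair in controls they called 771 and 1030, then 978 and 1056. The slide block gave 5 calls for GD9:00 minus GD8:15 in arsenic embryos, where it called 262 higher and 205 lower of all 7830 features. Masking low runs of the brighter features, chosen after seeing the data, gave 4, against 257 and 213 of 7794. The planned masking of low runs left the count at 2, against 207 and 155 of 7830.

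Leaving out 1 array at a time gave an arsenic median of -0.376 to -0.041 at GD9:00. For arsenic embryos it gave medians of 0.026 to 0.459 with 1 to 3 calls (GD9:00 minus GD8:15) and of -0.183 to 0.151 (GD9:12 minus GD9:00). Signs turned with the authors' scaling for the average of Ndufb3 (0.03), and with centring for Cox6b1 (-0.16), Atp5j2 (-0.21) and Ndufa4 (-0.02) at GD9:00 and for the averages of Cox6b1 (-0.15) and Atp5j2 (-0.14). The cause was not tested. No paired analysis was possible because the labels carry no replicate numbers. Dim features and 3 to 4 arrays a group limit what could be called.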

Other observations

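Of 5 tested blood marker features, 1 rose and 0 fell between GD9:12 and GD9:00 in arsenic embryos (3 higher and 2 lower in sign), and 3 rose and 0 fell in controls. Of all features, 1.9% rose and 1.98% fell there in arsenic embryos, and 3.82% and 7.42% in controls. These counts rest on quantile normalization. Hba-a1, an alpha globin, differed by 3.88 in arsenic embryos and 4.15 in controls on the log2 scale. Pkm, pyruvate kinase, was 4.04 ± 0.45 higher at GD9:00 than at GD8:15 in arsenic embryos and 4.96 ± 0.41 higher in controls (SE, limma adjusted p = 3.04e-05 and 6.95e-07).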
